A study of Rattus norvegicus with 22 samples.

Results

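The genes described here write and erase methyl groups on lysine 4 of histone H3 (H3K4). The 10 genes on the list are the catalytic subunits Setd1a and Setd1b, the shared subunits Ash2l, Wdr5, Rbbp5 and Dpy30, the targeting subunit Cxxc1, and the demethylases Kdm1a, Kdm5a and Kdm5b. They were taken by name from a table of 17172 genes. Of the 10, 8 were measured and passed the filter on low counts, as did 12875 genes in all, and Setd1a and Setd1b were not analysed here. The hippocampus on the injured side came from adult male Sprague-Dawley rats after lateral fluid percussion, a traumatic brain injury (TBI) in which a pulse of fluid strikes the dura through an opening in the skull. Sham rats had the same anesthesia and the same opening without the pulse, so every group carried the surgery. RNA was sequenced from 2 sham and 4 TBI rats at day 1 and from 4 sham and 4 TBI rats at day 14, and trimethylated H3K4 (H3K4me3) was mapped in 2 sham and 2 TBI rats at day 1. All groups were bulk tissue, in which fewer cells of a type and less RNA per cell cannot be told apart.

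H3K4me3 marks the promoters of genes that are being transcribed or are ready to be. It is written by SET1 and MLL complexes, in which a catalytic SET protein works efficiently only when held by a core of WDR5, RBBP5, ASH2L and DPY30. CXXC1 (CFP1) belongs to the SET1 complexes and binds CpG dinucleotides that carry no DNA methylation, which places the mark at CpG-rich promoters. KDM5A and KDM5B take off trimethyl and dimethyl groups, and KDM1A (LSD1), working with CoREST proteins, takes off dimethyl and monomethyl groups. Several of these genes are mutated in human intellectual disability.

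Because the mark is placed at CpG-rich promoters, the 250 bases before the transcription start were read for the members themselves from RefSeq (build GRCr8, which is not the build of the deposited files). Of the 10 listed genes 9 had an entry, Setd1a and Setd1b among them. The motif CG, which reads the same on both strands, occurred from 3 times (Wdr5) to 42 times (Setd1b) in these windows. Over 27457 promoters of the same length, 1 per gene, 92.5% held at least 1 CG and the median was 6. Other starts of a gene and the bases after the start were not read. Wdr5 and Kdm1a are printed because they were the 2 of 8 measured members whose sham groups did not overlap. The share of all tested genes without such overlap was not counted. Wdr5 lies at chr3:31235496-31235745 on the plus strand and Kdm1a at chr5:154121776-154122025 on the minus strand, with each CG in capitals.
Wdr5: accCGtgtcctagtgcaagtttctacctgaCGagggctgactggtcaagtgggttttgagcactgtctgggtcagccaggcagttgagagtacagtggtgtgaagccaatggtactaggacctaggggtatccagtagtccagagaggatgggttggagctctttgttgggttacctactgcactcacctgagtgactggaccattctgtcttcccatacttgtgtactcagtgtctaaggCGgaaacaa
Kdm1a: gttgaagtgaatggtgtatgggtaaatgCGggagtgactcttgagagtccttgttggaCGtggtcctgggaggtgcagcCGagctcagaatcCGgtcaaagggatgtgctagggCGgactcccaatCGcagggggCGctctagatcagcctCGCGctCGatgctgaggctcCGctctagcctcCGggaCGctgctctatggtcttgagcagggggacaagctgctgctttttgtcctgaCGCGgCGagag
Wdr5 held 3 CG in this window, and 27.6% of promoters held fewer. Kdm1a held 16, and 74.2% of promoters held fewer. Dpy30 held 4, Rbbp5 and Kdm5a 13 each, Kdm5b 15, Setd1a 22 and Cxxc1 28.

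Total counts were between 15065540 and 23743703 per rat. The members had between 262 and 2264 counts per rat. Neuron, astrocyte, oligodendrocyte and microglia markers were detected in every group, and none of these markers was at 0 throughout a group. Markers of the choroid plexus, a tissue next to the hippocampus, summed to 8630 CPM (counts scaled to the library size) in sham day 1 replicate 1 and to 6.45 in replicate 2. They also reached 7590 CPM in TBI day 14, against 22 at most in TBI day 1 and 19.9 at most in sham day 14. Levels below are log2 CPM after TMM scaling. They were compared between groups for 1 gene at a time and not between genes, since the table gives no lengths.

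At day 1 none of the 8 members passed the test between TBI and sham rats. By comparison, 11.2% of all tested genes were called higher and 7.93% lower in TBI (edgeR's quasi-likelihood test, adjusted p under 0.05). The median log2 fold change of the members was 0.128, against -0.0155 over all tested genes. The 95% intervals of the 8 members together ran from -0.53 to 0.83, that is from -30.9% to 77.6%. A miss of the threshold with a pair of sham rats does not show that the level stayed the same.

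Cxxc1 was the member nearest the threshold. Its level was 6.03 and 6.09 in the sham rats and 6.60, 6.39, 6.59 and 6.20 in the TBI rats, so all TBI rats lay above both sham rats. Cxxc1 alone of the 8 members was without overlap at day 1, and the share over all tested genes was not counted. The log2 fold change was 0.39 (SE 0.17, 95% interval 0.03 to 0.75), or 31.1% higher, with an unadjusted p of 0.0368 and an adjusted p of 0.119 in edgeR. Among 25 alternative settings 1, scaling by library size alone, carried it past the threshold, and that setting moved the median of all genes to 0.15.

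**Figure D1:**
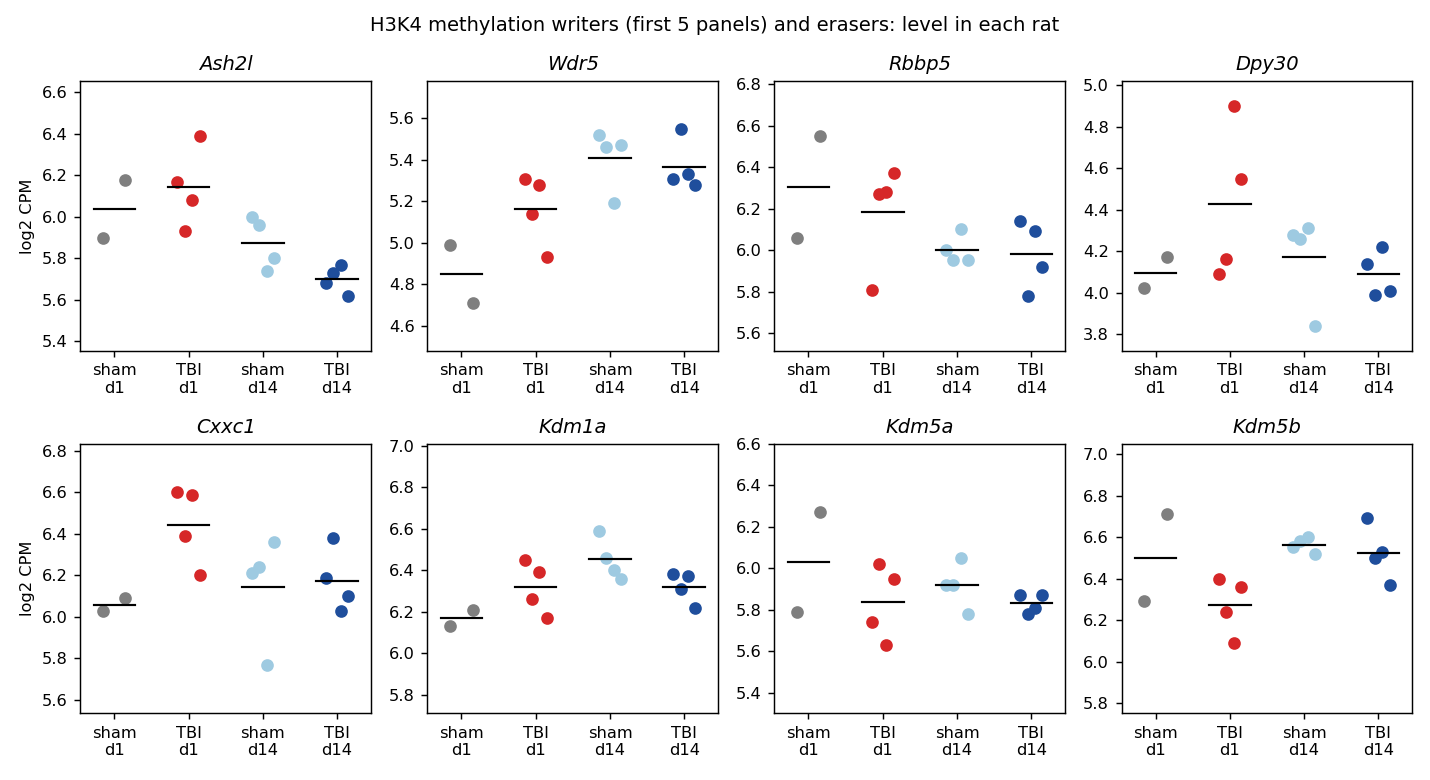
Level of each measured member (log2 CPM after TMM scaling, y axis) in each rat, by group (x axis, d1 and d14 for day 1 and day 14); points are rats and bars are group means. Every panel spans the same range, and for Cxxc1 the 4 TBI rats of day 1 sit between 6.20 and 6.60, above the sham rats of that day at 6.03 and 6.09.

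The 4 shared core subunits had values on both sides of 0, none past the threshold. Wdr5, the WD40 scaffold that grips the catalytic subunit, stood at 4.99 and 4.71 in sham rats and at 5.31, 5.14, 5.28 and 4.93 in TBI rats. The lowest TBI rat lay between the sham rats. The log2 fold change was 0.32 (SE 0.15, 95% interval -0.01 to 0.64, adjusted p = 0.158).

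Dpy30, the small subunit that docks on ASH2L, read 4.02 and 4.17 in sham rats and 4.09, 4.16, 4.90 and 4.55 in TBI rats. Replicates 3 and 4 were above both sham rats, and replicates 1 and 2 were between them. Its log2 fold change of 0.37 had the widest error of the members (SE 0.22, 95% interval -0.10 to 0.83, adjusted p = 0.252), and without TBI replicate 3 it was 0.18.

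Ash2l, which stimulates the methyltransferase together with RBBP5, read 5.90 and 6.18 in sham rats and 6.17, 5.93, 6.08 and 6.39 in TBI rats. Rbbp5 read 6.06 and 6.55 in sham rats and 5.81, 6.27, 6.28 and 6.37 in TBI rats. For both genes the groups overlapped. The log2 fold changes were 0.11 for Ash2l (SE 0.14, 95% interval -0.20 to 0.41, adjusted p = 0.642) and -0.13 for Rbbp5 (SE 0.17, 95% interval -0.49 to 0.24, adjusted p = 0.633).

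Among the erasers, the trimethyl demethylases had negative values and Kdm1a a positive one, none past the threshold. Kdm5a read 5.79 and 6.27 in sham rats and 5.74, 6.02, 5.63 and 5.95 in TBI rats, a log2 fold change of -0.21 (SE 0.15, 95% interval -0.53 to 0.11, adjusted p = 0.346). Kdm5b read 6.29 and 6.71 in sham rats and 6.40, 6.24, 6.09 and 6.36 in TBI rats, a log2 fold change of -0.24 (SE 0.14, 95% interval -0.53 to 0.06, adjusted p = 0.246). In both genes sham replicate 2 was the highest rat of the day and replicate 1 lay among the TBI rats. Kdm1a read 6.13 and 6.21 in sham rats and 6.45, 6.26, 6.39 and 6.17 in TBI rats, a log2 fold change of 0.15 (SE 0.12, 95% interval -0.11 to 0.41, adjusted p = 0.408).

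The sham rats of day 1 differed from each other. Replicate 2 was above replicate 1 by 0.49 for Rbbp5, 0.48 for Kdm5a, 0.42 for Kdm5b and 0.28 for Ash2l on the log2 scale, and differed from it by -0.28 for Wdr5. For Dpy30, Kdm1a and Cxxc1 the gap was 0.15, 0.08 and 0.06. Without replicate 2 the log2 fold change of TBI was 0.18 for Wdr5, 0.14 for Rbbp5, 0.055 for Kdm5a and -0.014 for Kdm5b, and without replicate 1 it was 0.46, -0.35, -0.43 and -0.43. Markers of other cell types also separated the day 1 groups. Summed neuron markers were 4620 to 8530 CPM in TBI and 11000 to 13400 in sham, microglia and macrophage markers 791 to 1030 and 346 to 595, and proliferation markers 112 to 261 and 61.2 to 61.6. Of the 10 microglia and macrophage markers, 5 were called higher and 2 lower in TBI. Summed astrocyte markers were 13800 to 20300 in TBI and 6810 to 10900 in sham, but of those 10 genes 4 had positive and 6 negative fold changes, with 2 called higher and 1 lower. Their part in the members' values was not tested.

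At day 14 the log2 fold changes of the members spanned a narrower range than at day 1 (-0.24 to 0.39), where only 2 sham rats were sequenced. None of the 8 was called, while 4.07% of all tested genes were called higher and 0.365% lower in TBI, and none had an unadjusted p under 0.05. limma-voom and DESeq2 also called none. The log2 fold changes ran from -0.18 to 0.02 with a median of -0.0692, against -0.0305 over all tested genes, and adjusted p was 0.634 to 0.989 in edgeR. The 95% intervals bounded the difference between -27.8% and 24.2% for every measured member.

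Ash2l had the day 14 value farthest from 0. It read 6.00, 5.96, 5.74 and 5.80 in sham rats and 5.68, 5.73, 5.77 and 5.62 in TBI rats, which overlapped, with a log2 fold change of -0.18 (SE 0.12, 95% interval -0.43 to 0.07, adjusted p = 0.634). Kdm1a followed at -0.13 (SE 0.10, 95% interval -0.34 to 0.07, adjusted p = 0.685), with TBI rats at 6.38, 6.31, 6.37 and 6.22. Wdr5 was at -0.05 and Dpy30 at -0.09. Rbbp5 was at -0.01 and Cxxc1 at 0.02. Kdm5a and Kdm5b were at -0.09 and -0.04. Summed choroid plexus markers spanned 13.9 to 7590 CPM in TBI day 14 and 13.2 to 19.9 in sham day 14, and leaving out either TBI rat that was high in them, replicate 2 or replicate 3, again gave 0 calls.

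**Figure D2:**
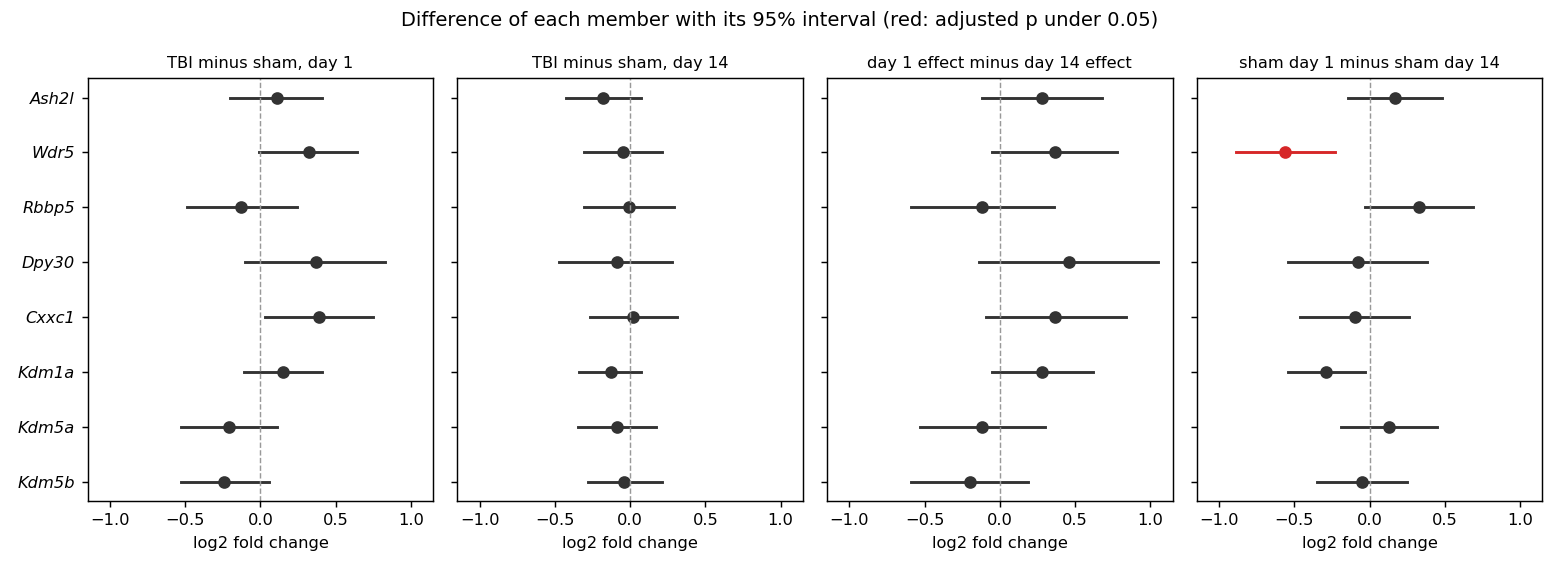
Log2 fold change (x axis) of each member (y axis) in 4 comparisons, with points for edgeR estimates, lines for 95% intervals, and red where the adjusted p was under 0.05. Wdr5 in sham day 1 against sham day 14, at -0.56, is the only red point, and the day 14 panel has the narrowest spread of points, -0.18 to 0.02.

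Whether the TBI effect itself differed between the days was tested as an interaction. None of the 8 members was called, against 2.24% of all tested genes with a higher and 1.44% with a lower effect at day 1. None of the members had an unadjusted p under 0.05 here, and limma-voom and DESeq2 called none. The effect at day 1 exceeded that at day 14 by 0.46 for Dpy30 (SE 0.28, 95% interval -0.14 to 1.05), 0.37 for Cxxc1 (SE 0.22, -0.09 to 0.84), 0.37 for Wdr5 (SE 0.20, -0.05 to 0.78), and 0.28 for both Ash2l (SE 0.19, -0.12 to 0.68) and Kdm1a (SE 0.16, -0.05 to 0.62). The 3 other members, Rbbp5, Kdm5a and Kdm5b, had differences of -0.12, -0.12 and -0.20. All adjusted p values of the members were between 0.329 and 0.809.

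The sham groups, which differ in the time since surgery, gave the only call among the members. Wdr5 read 4.99 and 4.71 in sham day 1 and 5.52, 5.46, 5.19 and 5.47 in sham day 14, without overlap. It was lower at day 1 by a log2 fold change of -0.56 (SE 0.15, 95% interval -0.89 to -0.23, adjusted p = 0.0223), a change of -32.3%. That is 1 of 8 members called lower, beside 7.88% of all tested genes lower and 11.3% higher. Wdr5 in TBI rats of day 1, at 4.93 to 5.31, overlapped both sham groups.

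The call for Wdr5 held in 19 of 23 alternative settings. It was missed without sham day 1 replicate 2 (log2 fold change -0.43, adjusted p = 0.186) and without sham day 14 replicate 1, 2 or 4 (log2 fold changes -0.53, -0.55 and -0.54, adjusted p = 0.0562, 0.0528 and 0.0549). Summed choroid plexus markers were 6.45 and 8630 CPM in the sham day 1 rats. Without the rat high in them the Wdr5 difference was -0.70 (adjusted p = 0.0282), and with a choroid plexus score as a covariate it was -0.64 (adjusted p = 0.0259). Summed oligodendrocyte markers were 11400 to 15400 CPM in sham day 1 and 15600 to 24800 in sham day 14, with 0 of 10 called, and their part was not tested.

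Kdm1a showed the same order without passing the threshold. It read 6.13 and 6.21 in sham day 1 and 6.59, 6.46, 6.40 and 6.36 in sham day 14, without overlap (log2 fold change -0.29, SE 0.12, 95% interval -0.54 to -0.03, adjusted p = 0.110). Rbbp5 was on the other side at 0.33 (SE 0.17, 95% interval -0.03 to 0.69, adjusted p = 0.184). Ash2l, Dpy30, Cxxc1, Kdm5a and Kdm5b had values between -0.10 and 0.17, all with intervals that include 0. The median over the 8 members was -0.0674, against 0.0195 over all tested genes.

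Since the sham groups differed, TBI day 1 is also given against sham day 14, the baseline of the study's trajectories. This comparison shares the TBI rats with that above and adds a difference in time. None of the 8 members was called, although 25% of all tested genes were called higher and 21% lower. Kdm5b came nearest at -0.29 (SE 0.11, 95% interval -0.53 to -0.04, adjusted p = 0.0524), with 6.09 to 6.40 in TBI day 1 and 6.52 to 6.60 in sham day 14, so that these groups did not overlap. Ash2l was at 0.28 (SE 0.12, 95% interval 0.02 to 0.53, adjusted p = 0.0684) and Cxxc1 at 0.29 (SE 0.14, adjusted p = 0.0948). The sign was the same against either sham group for 5 of 8 members. It turned for Wdr5 (0.32 and -0.25), for Kdm1a (0.15 and -0.14) and for Rbbp5 (-0.13 and 0.20).

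**Figure D3:**
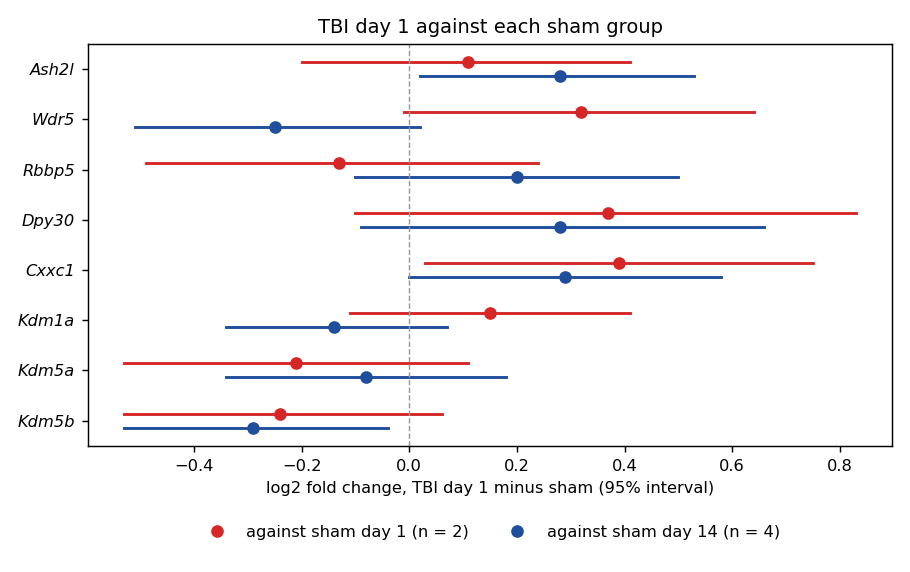
Log2 fold change (x axis) of TBI day 1 against sham day 1 (red, 2 sham rats) and against sham day 14 (blue, 4 sham rats) for each member (y axis), with 95% intervals. Wdr5, Kdm1a and Rbbp5 lie on opposite sides of 0 in the comparisons, at 0.32 and -0.25 for Wdr5.

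Around the members, a list of 51 other genes of H3K4 methylation was read in the same fits, of which 38 were measured and tested. The MLL methyltransferases Kmt2a, Kmt2b, Kmt2c and Kmt2d were not among the 38. At day 1 none was called higher and 2 were called lower in TBI, beside 11.2% and 7.93% of all tested genes. The median log2 fold change of the 38 was -0.116. At day 14 none was called in either direction, beside 4.07% of all tested genes called higher and 0.365% lower, with 0 higher and 1 lower at an unadjusted p under 0.05 (Zmym3, -0.42, named after its value was seen), and limma-voom and DESeq2 called none.

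The genes called lower at day 1 were both methyltransferases outside the SET1 and MLL family. Setd7, which monomethylates H3K4 and many other proteins, read 5.38 and 6.18 in sham rats and 4.41, 4.80, 4.34 and 5.31 in TBI rats, without overlap, a log2 fold change of -1.07 (SE 0.32, 95% interval -1.76 to -0.38, adjusted p = 0.0318), a change of -52.4%. Smyd1, known from heart and skeletal muscle, had 14 and 22 counts in sham rats and 9, 4, 5 and 3 in TBI rats. Its difference on the log2 scale was -1.84 (SE 0.50, 95% interval -2.90 to -0.78, adjusted p = 0.0188), and it rests on few counts. At day 14 Setd7 was at -0.06 and Smyd1 at -0.46, with adjusted p of 0.977 and 0.780.

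Both calls were lost without sham day 1 replicate 2, which leaves 1 sham rat, and fewer of all tested genes were called there too. The log2 fold changes were then -0.61 for Setd7 and -1.61 for Smyd1. Without replicate 1 they were -1.42 and -2.04. Setd7 also missed the threshold without TBI day 1 replicate 1, 2 or 3, with log2 fold changes of -0.97, -1.08 and -0.95 (adjusted p = 0.0601, 0.0559 and 0.0729). Library size alone (-0.90, adjusted p = 0.0571) and all 6 sham rats as baseline (-0.60, adjusted p = 0.124) lost Setd7 as well. With only the groups compared both were missed, Setd7 at -1.04 (adjusted p = 0.105) and Smyd1 at -1.80 (adjusted p = 0.186). Setd7 was called in 17 of 25 alternative settings and Smyd1 in 22 of 24. Against sham day 14, which does not use the day 1 sham rats as baseline, Smyd1 was called at -1.45 (adjusted p = 0.0146) and Setd7 was not, at -0.30 (adjusted p = 0.392). Smyd1 there had 3 to 9 counts in TBI day 1 and 7 to 15 in sham day 14, and the rats overlapped. In that comparison 4 list genes were called higher (Chd1, Ing3, Psip1 and Taf3) and 5 lower (Kdm1b, Men1, Rcor1, Smyd1 and Zmym3), beside 25% and 21% of all tested genes, and all but Smyd1 are named after their values were seen.

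By role, the remaining genes of the list gave no call at day 1. The 7 other methyltransferases, Setd7 and Smyd1 included, ranged from -1.84 to 0.14 in log2 fold change, with a median of -0.504. Of these 7, 0 were higher and 4 lower at an unadjusted p under 0.05 in edgeR, beside 2236 and 2193 of all 12875 tested genes. The 9 subunits that belong to particular writer complexes ranged from -0.59 to 0.67, the 3 other demethylases from -0.37 to -0.01, the 8 partners of KDM1A from -0.36 to 0.40, and the 11 readers of methylated H3K4 from -0.38 to 0.36 in log2 fold change. The genes named next were chosen after their values were seen. Among partners of KDM1A, the deacetylases Hdac1 and Hdac2, which share its complex, were at 0.40 and -0.25, and the scaffold Rcor1 (CoREST) at -0.18. Hcfc2, a subunit of MLL complexes, was just short of the threshold at 0.55 (SE 0.19, adjusted p = 0.0510), and DESeq2 called it.

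Between the sham groups 9 of the 38 were called, 6 higher and 3 lower at day 1, beside 11.3% and 7.88% of all tested genes. The genes of this comparison are named after their values were seen. Psip1 (LEDGF), which ties the MLL complex to chromatin, was higher by 1.22 (SE 0.28, adjusted p = 0.0102). Taf3, the TFIID subunit whose PHD finger reads H3K4me3, was higher by 1.05 (SE 0.20, adjusted p = 0.00488).

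The 4 further genes that were higher were Ing3, Wdr82, Ncoa6 and Ing2, at 0.99, 0.81, 0.62 and 0.49. Zmym3, a partner of KDM1A, was at -1.03, Men1 (menin), a subunit of MLL complexes, at -0.71, and Kdm1b, the H3K4 demethylase closest to KDM1A, at -0.63. Leaving out a rat of sham day 1 leaves 1 rat in that group. Without replicate 1 the threshold was missed by Zmym3 (-0.98), Kdm1b (-0.58) and Ing2 (0.53). Without replicate 2 all these calls were lost, and fewer of all tested genes were called too. In that fit Zmym3 was at -1.08 and Kdm1b at -0.68, while Psip1 was at 0.64, Taf3 at 0.68, Ncoa6 at 0.31 and Wdr82 at 0.42.

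**Figure D4:**
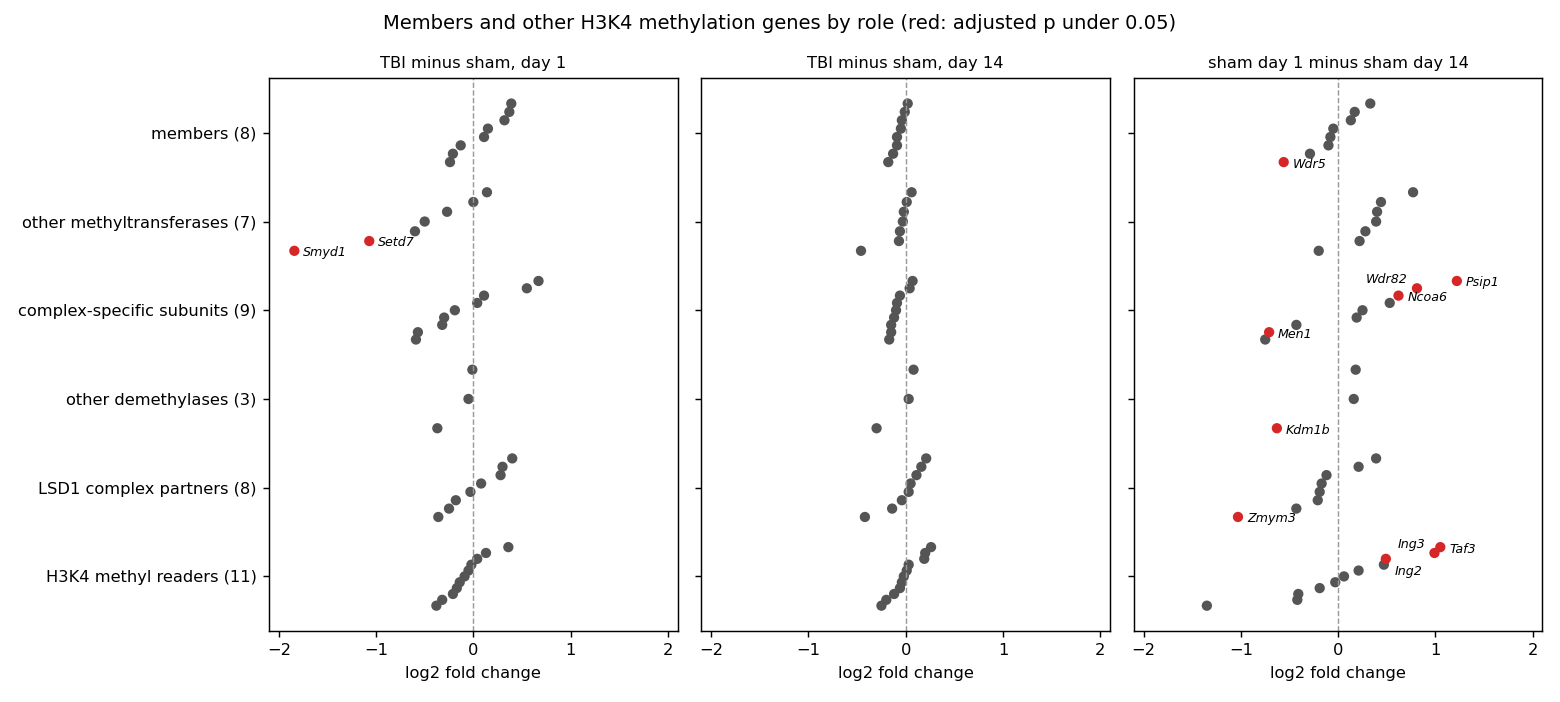
Log2 fold change (x axis) of the 8 members and the 38 other genes of H3K4 methylation by role (y axis) in 3 comparisons, 1 point per gene, red and named where the adjusted p was under 0.05. Day 1 has 2 red points, Setd7 at -1.07 and Smyd1 at -1.84, day 14 has none, and the sham comparison has 10, of which Wdr5 is the member.

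H3K4me3 itself was read from 4 lists of broad peaks at day 1. The peak caller's header names a sham sample in each of the 4 lists, including both labelled TBI, so the groups below are those of the sample labels. The lists hold positions on build rn5 without gene names, and no annotation of rn5 was used here, so peaks were not assigned to the members' promoters and the comparison is genome-wide. With 2 rats against 2 the smallest exact two-sided p is 0.333. Whether these rats were also among those whose RNA was sequenced is not given in the sources used here.

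As deposited, the sham lists held 116241 and 235078 peaks and the TBI lists 178020 and 353688. The groups overlapped (exact permutation p = 0.667). The lists covered 83.2 and 134 Mb in sham and 110 and 137 Mb in TBI. Median peak width was 335 and 333 bases in sham and 299 and 200 in TBI, without overlap (exact permutation p = 0.333, the smallest possible). Depth and threshold also differed between the lists. TBI replicate 2 had 7236993 tags after filtering against 16062200 to 18972037 in the other lists, and the lowest pileup in a list was 4 in both sham lists, 3 in TBI replicate 1 and 2 in TBI replicate 2.

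At a fold enrichment of at least 4 the lists came closer, with 16027 and 15276 peaks in sham and 16575 and 13944 in TBI (exact permutation p = 1). These peaks covered 42.5 and 38.8 Mb in sham and 47.2 and 33.2 Mb in TBI, so the TBI rats lay on either side of both sham rats. The lowest pileup among these peaks was 10.61 and 11.12 in sham and 9.87 and 6.1 in TBI. The lists were thus not cut at a common height, and the part of depth was not tested. Peaks of 4 kb or more, the wide domains found at strongly marked promoters, numbered 2406 and 1935 in sham and 3102 and 1293 in TBI. Their group means differed by a log2 ratio of 0.018, and the TBI rats again lay outside the sham rats on both sides. Median width at this enrichment was 2379 and 2258 bases in sham and 2552 and 2163 in TBI, with overlap. With 2 rats in each group no test of these lists could pass the threshold, and the values do not show that the mark was the same.

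**Figure D5:**
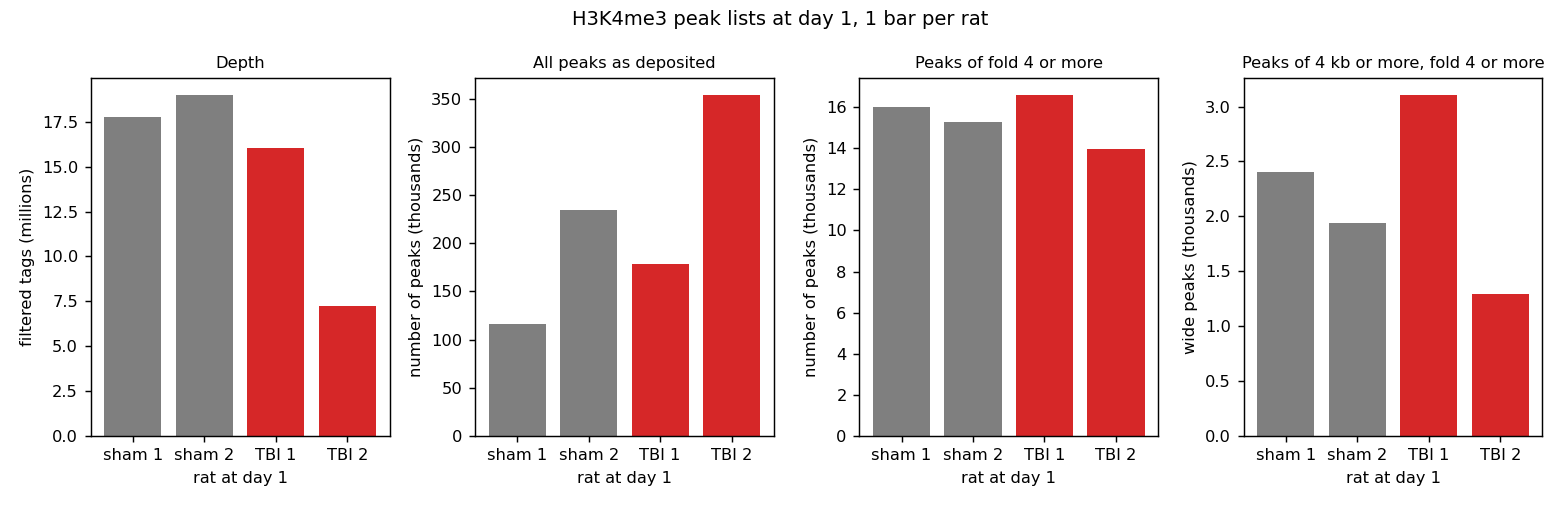
H3K4me3 lists of the 2 sham (grey) and 2 TBI (red) rats at day 1, with filtered tags, all deposited peaks, peaks of fold enrichment 4 or more, and those of at least 4 kb on the y axes, 1 bar per rat (x axis). TBI replicate 2 has the fewest tags, 7236993, and the most deposited peaks, 353688, but the fewest at fold 4 or more, 13944.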

How the data were processed

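RNA counts came from 14 rats and H3K4me3 peaks from 4, each with an input library as control. Groups were taken from the sample labels, and the members and gene lists were chosen with earlier results of these data known. Genes named are the 10 members and every gene of the H3K4 list called at either day in TBI against sham. Some list genes that were not analysed, and those said to be named after their values were seen, are named too.

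Per the labels and the study's methods, the authors aligned RNA reads to rn5 with STAR 2.4.2a and counted them per gene with featureCounts 1.5.0, and the deposited counts were used as raw counts without normalization. Whether counting used the strand is not given in the sources used here, so overlapping genes may share reads. For H3K4me3 the authors used BWA 0.7.16a, SAMtools 1.8 and MACS2 2.1.2, with 1 list per rat. The pileup signal, the height of stacked tags in a peak, was used as deposited. The fold enrichment compares that height with a background and was used as deposited. Within a list it is not in fixed proportion to that height. A given fold need not stand for the same height in each list. The −log10 q values are those deposited, although the header of each list says MACS2 computed no q.

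Differences were tested with edgeR 4.0.16 (R 4.3.3), after filterByExpr and TMM scaling, by two-sided quasi-likelihood tests with 1 mean per group over all 14 samples and Benjamini-Hochberg adjustment over 12875 genes. The 14 rats share 1 estimate of the spread. The covariate score is the mean level of the choroid plexus markers, each centred on its mean. Levels are log2 CPM (prior count 2). Overlap between the rats of compared groups was read for the members and list genes only, and no share over all tested genes was counted. Alternatives were limma 3.58.1 (voom), DESeq2 1.42.0, other scalings, filters, baselines and samples, and 1 peak setting was added after seeing the data (fold enrichment of at least 4 with peaks within 500 bases joined). Fits were tested on simulated data. Pairs of replicates differed by more than counting noise (chi-square per degree of freedom 13.3 to 172 over 19 pairs). The genes Pagr1, Riox1 and Rcor1 of the H3K4 list were matched through RefSeq synonyms. Of its 51 genes 13 were not analysed here, among them Kmt2a, Kmt2b, Kmt2c, Kmt2d, Kdm5c and Kdm5d.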

Additional observations from a re-analysis of the deposited data

Results flagged for a closer look

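Of 30 sets of 4 rats examined for 10 named genes, 1 had a rat far from the others. Dpy30 in sham day 14 read 4.28, 4.26, 4.31 and 3.84, and the gap of the lowest rat, replicate 4, to its nearest neighbour was 0.89 of the whole range, above Dixon's 95% critical value. Chance gives such a gap in about 1 of 20 sets.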

How the results depend on the processing

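Members called higher at day 1 numbered 0, and 1 with library size alone (Cxxc1). The 1 member called lower between sham groups became 0 in 4 fits that left out a rat (range 0 to 1). List genes called lower at day 1 numbered 2, but 1 with library size alone, 1 with at least 10 counts in every sample, 0 with only the groups compared, 1 against all 6 sham rats, 5 against sham day 14, and 0 to 7 when leaving out 1 rat. List genes called higher numbered 0, but 1 (Hcfc2) with DESeq2, library size alone, at least 10 counts in every sample and the replicate block, 4 (Chd1, Ing3, Psip1 and Taf3) against sham day 14, and 0 to 1 when leaving out 1 rat. Replicate numbers were not taken as pairs. Deviations of same-numbered rats correlated from -0.35 to 0.24, with 5 of 18 pairs over 0.1. Those of differently numbered rats correlated from -0.43 to 0.35, with 16 of 54 over 0.1. With so few rats in a group, these values cannot settle whether same-numbered rats shared a batch. With the replicate number as a block 0 members were called at either day, 1 (Wdr5, -0.63) between sham groups, and 3 list genes lower at day 1. The causes were not tested.

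The direction turned in these cases, none of them called. At day 1 the log2 fold change was -0.25 and -0.078 for Wdr5, -0.14 and -0.043 for Kdm1a, and 0.20 and 0.086 for Rbbp5 against sham day 14 and against all 6 sham rats. Library size alone gave 0.041 for Rbbp5 at day 1 and 0.030 at day 14, 0.0113 for the difference of Rbbp5 between days, 0.0151 for that of Kdm5a, and 0.00457 for Kdm5b at day 14. At day 14 Rbbp5 was at 0.00584 with at least 10 counts in every sample and at 0.023 with only the groups compared. Between sham groups Kdm5b was at 0.0174 with the choroid plexus score. Leaving out 1 rat gave, at day 1, -0.032 to 0.26 for Ash2l, -0.35 to 0.14 for Rbbp5 and -0.43 to 0.055 for Kdm5a. At day 14 it gave -0.064 to 0.052 for Rbbp5, -0.091 to 0.093 for Cxxc1, -0.097 to 0.013 for Kdm5b and -0.19 to 0.23 for Setd7. For the difference between days it gave -0.34 to 0.15 for Rbbp5, -0.34 to 0.14 for Kdm5a and -0.40 to 0.023 for Kdm5b, and between sham groups -0.13 to 0.35 for Kdm5a and -0.27 to 0.14 for Kdm5b. Where a group is left with 1 rat, that rat is assumed to vary like the others.

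For H3K4me3 the log2 ratio of median peak width, TBI to sham, was -0.42 as deposited and 0.0217 at a −log10 q of at least 10, 0.0241 at a fold enrichment of at least 4 and 0.0179 when such peaks were also joined. Leaving out 1 rat gave -0.74 to -0.16 for width, -0.13 to 0.57 for length covered and -0.82 to 0.44 for peaks of 4 kb or more.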
